A study of Rattus norvegicus with 18 samples.

Results

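The renin-angiotensin system genes described here are Agt, Ace, Enpep, Agtr1a, Agtr1b, Atp6ap2 and Nr3c2, measured in rat kidney by every probe set that the platform annotation assigns to them. They held 11 of the 31042 probe sets of the Affymetrix rat genome array used, on which several probe sets can read 1 gene, and no further probe set named a member together with another gene. Of the 11, 10 passed a filter that removed the dimmest 40% by mean log2 value, and the second probe set of Ace did not. Whole kidneys of 18 rats were profiled, 1 array per rat: 9 S.SHR(2), a congenic strain derived from SHR/NHsd, the spontaneously hypertensive rat, and SS/Jr, whose name denotes chromosome 2, and 9 Dahl S (SS/Jr), the salt-sensitive parent strain. The series title calls the congenic strain renal protective. The design text names males of 4, 12 and 20 weeks, but the labels give an age, and a low-salt diet, for only 2 rats, both Dahl S.

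The samples were deposited in 3 runs of 6, each with 3 rats of each strain. These runs are called deposit blocks 1, 2 and 3 and serve as a technical block. The rat labelled 4 weeks lies in block 1 and the rat labelled 12 weeks in block 2, but no label says what a block is, so differences of age, handling or hybridisation between blocks cannot be told apart. No label says that the rats of a strain were littermates or otherwise, and p values measure the spread between these arrays. A congenic strain differs from its parent at many genes of the introgressed segment together, and the labels used here do not give its borders. In whole kidney, fewer cells of a type and less RNA per cell cannot be told apart.

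Angiotensinogen, encoded by Agt, is the precursor of angiotensin I. Angiotensin-converting enzyme turns this into angiotensin II, which raises blood pressure through the type 1 receptor and makes the adrenal gland release aldosterone, the ligand of the mineralocorticoid receptor. In the kidney, angiotensinogen is made in the proximal tubule and peptidases of the brush border break angiotensin peptides down.

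The arrays of block 3 stood apart. Their highest intensities ran from 7508 to 9499, against 11270 to 13704 in block 2 and 11117 to 14648 in block 1. On the first principal component, which held 39.9% of the variance, the arrays of block 3 lay between 33.3 and 38.7 and all others between -37.1 and -8.93. The 3'/5' intensity ratio of the GAPDH control was 1.5 to 1.6 in block 3, 1.28 to 2.04 in block 2 and 1.19 to 2.51 in block 1, with the highest value in S.SHR(2) replicate 1. That of the beta-actin control was 2.27 to 3 in block 3, 3.14 to 5.88 in block 2 and 2.22 to 6.83 in block 1. By this control, blocks 3 and 2 did not overlap. The part of RNA quality in the steps between blocks was not tested. Between blocks 3 and 1, 41.3% of the 18625 probe sets tested differed, so a difference between blocks in a member stands against a large background. Strain comparisons are therefore also given within blocks.

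**Figure D1:**
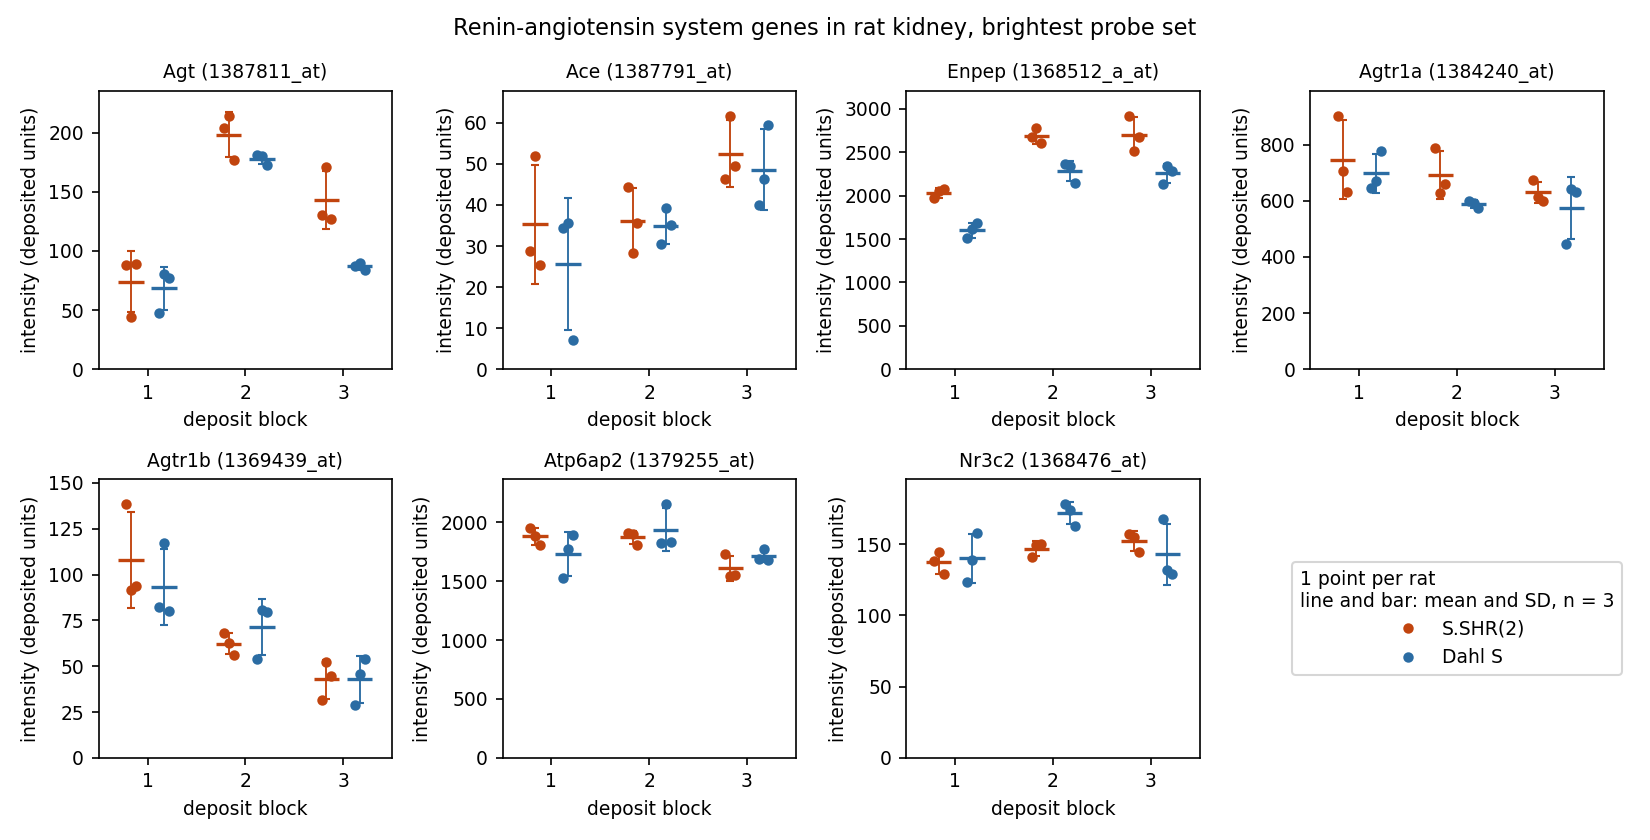
Deposited intensity of the brightest probe set of each gene in each rat (vertical axis, from 0) by deposit block (horizontal axis), S.SHR(2) left and Dahl S right within a block, with the mean and SD of 3 rats. On this deposited scale Enpep is higher in S.SHR(2) in every block without overlap. Agt is highest in block 2, and Agtr1b steps down over the blocks.

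Enpep was the member whose strain difference was largest against the spread between rats. It encodes aminopeptidase A, a brush border enzyme that removes the first residue of angiotensin II and so makes angiotensin III. Its bright probe set, 1368512_a_at, read 1968, 2049.8 and 2073 in the S.SHR(2) rats of block 1, against 1512, 1615 and 1682 in Dahl S. In block 2 it read 2672, 2775 and 2602 in S.SHR(2), against 2359, 2339 and 2146 in Dahl S. In block 3 it read 2918, 2512 and 2677 in S.SHR(2), against 2137, 2344 and 2287 in Dahl S. By deposited intensity the strains did not overlap in any block, and S.SHR(2) was the higher each time. On that scale, 0.113% of all probe sets tested had the S.SHR(2) range above the Dahl S range in each of the 3 blocks. On the normalized log2 scale used for the tests, the Enpep ranges separated only in block 1. The lowest S.SHR(2) and highest Dahl S values were 11.288 and 11.29 in block 2, and 11.236 and 11.265 in block 3.

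Over all rats, Enpep intensity averaged 2472 ± 351 in S.SHR(2) and 2047 ± 345 in Dahl S (SD, n = 9 each). Without a term for the block, the strain difference was 0.23 ± 0.11 on the log2 scale (SE) and did not pass (limma adjusted p = 1.0). In that fit no member passed, 0.123% of probe sets did, and 748 had an unadjusted p under 0.05. With the block as a term the same difference, 1.17-fold, had an SE of 0.0502 and an adjusted p of 0.034. In this fit 1 of the 10 tested member probe sets passed, against 0.494% of all probe sets (0.177% higher and 0.317% lower in S.SHR(2)). The difference was 0.34 ± 0.0847 within block 1, 0.20 ± 0.0847 within block 2 and 0.14 ± 0.0847 within block 3, none of which passed alone (adjusted p = 0.14, 1.0 and 0.59). Of all probe sets 0.161%, 0.123% and 0.338% passed within blocks 1, 2 and 3. The call was near the threshold. Leaving out each rat in turn kept it 5 times in 18, and the change ran from 0.20 to 0.26 and the adjusted p from 0.0072 to 0.086.

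The dim Enpep probe set, 1368513_at, read 37.5 to 61.3 in S.SHR(2) and 35.1 to 87.8 in Dahl S, and the strains overlapped in every block. Its strain difference with the block as a term was 0.01 (95% interval -0.23 to 0.25), so the interval reached the size seen with the bright probe set. With the mean of both probe sets, Enpep was at 0.12 and not called (adjusted p = 0.48). Whether a sequence difference between the strains lies under a probe was not tested. Proximal tubule markers, 10 of 10 above the filter, had a summed intensity of 32778 to 45319 in S.SHR(2) and 30081 to 41298 in Dahl S. None of the 10 passed with the block as a term, and their median change was 0.0023.

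Enpep lies on chromosome 2, the chromosome that the strain's name denotes. In the gene order of the assembly GRCr8 it is the 600th of 691 tested genes of that chromosome, 5 places before Pla2g12a. Of its near neighbours, chosen after their values were seen, the complement regulator Cfi was lower (-0.81 ± 0.173, adjusted p = 0.027) and the phospholipase Pla2g12a higher (1.14 ± 0.0856, adjusted p = 1.7e-08) with the block as a term. Elovl6, which elongates fatty acids, and Egf, a growth factor of the distal tubule, lie between them and Enpep and were at 0.04 ± 0.0884 and 0.09 ± 0.0717. Gar1, which lies there too, was at 0.30 ± 0.0802 and did not pass (adjusted p = 0.12). Changed genes there thus went both ways, beside genes that did not pass. With the block as a term 35 of the 691 tested genes of chromosome 2 and 14 of the 9759 elsewhere were called.

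**Figure D2:**
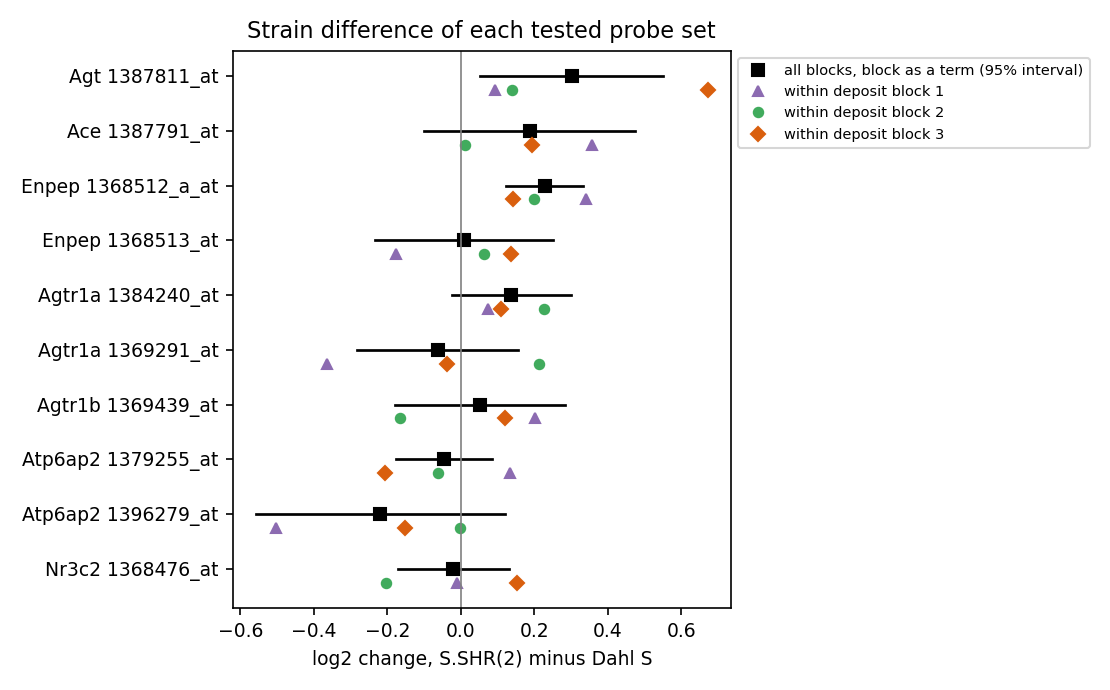
Log2 change, S.SHR(2) minus Dahl S (horizontal axis), of the 10 tested probe sets, with the 95% interval of the fit with block as a term (squares and bars) and the difference within each block (symbols below). All 3 blocks lie above 0 for the bright Enpep probe set, and also for Agt, Ace and the bright Agtr1a probe set. Agt shows its largest difference, 0.67, in block 3.

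The bright Enpep probe set also differed between blocks. Averaged over the strains it was higher in block 2 than in block 1 by 0.44 ± 0.0599 (adjusted p = 2.1e-05) and higher in block 3 than in block 1 by 0.49 ± 0.0599 (adjusted p = 1.5e-06). Blocks 3 and 2 differed by 0.05 ± 0.0599 and are not ordered. The dim probe set differed by -0.25 (95% interval -0.55 to 0.05) between blocks 2 and 1 and by 0.07 (adjusted p = 0.73) between blocks 3 and 1, so the rise was seen with 1 of the 2 probe sets. The summed proximal tubule markers spanned 39143 to 42492 in block 1, 39335 to 45319 in block 2 and 30081 to 36241 in block 3. On the normalized log2 scale their median change between blocks 3 and 1 was -0.0090. Their part in the result was not tested.

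Agt, the angiotensinogen gene, was the member with the largest step between blocks 1 and 2. Its intensity was 88.4, 44.1 and 89.3 in S.SHR(2) of block 1, against 47.6, 80.7 and 77.3 in Dahl S. In block 2 it was 203.7, 214.2 and 177.3 in S.SHR(2), against 180.9, 180 and 172.9 in Dahl S. In block 3 it was 130.3, 171.2 and 127.3 in S.SHR(2), against 87.3, 89.9 and 84.0 in Dahl S. All 6 rats of block 2 lay above all rats of the other blocks by deposited intensity. On the normalized log2 scale S.SHR(2) replicate 8 of block 3, at 7.583, lay above Dahl S replicate 6 of block 2, at 7.570. Ranges of blocks 2 and 1 were separate for 8.52% of all probe sets and those of blocks 3 and 2 for 19.7%.

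Agt rose by 1.29 ± 0.136 in block 2 relative to block 1 (adjusted p = 7.7e-07) and was lower in block 3 than in block 2 (-0.69 ± 0.136, adjusted p = 5.1e-04). Block 3 remained 0.60 ± 0.136 above block 1 (adjusted p = 0.0014), which gives the order block 1, block 3, block 2, with each neighbour past the threshold. The strains separated only in block 3, where S.SHR(2) averaged 142.9 ± 24.5 and Dahl S 87.1 ± 2.96 (SD, n = 3 each). That difference, 0.67 ± 0.193 or 1.59-fold, did not pass over all probe sets (adjusted p = 0.17). Separate strain ranges within block 3 were found for 20.4% of all probe sets, against 9.27% in block 2 and 10.6% in block 1. Over all blocks Agt differed by 0.30 (95% interval -0.25 to 0.85, adjusted p = 1.0), or 0.05 to 0.55 with the block as a term (adjusted p = 0.41), and the test of whether the strain difference changed between blocks gave an adjusted p of 0.76. Other tissues that make angiotensinogen were checked through their markers. Adipocyte markers, 7 of 10 above the filter, summed to 664 to 918 in S.SHR(2) and 720 to 934 in Dahl S, and to 664 to 917, 756 to 934 and 747 to 930.3 in blocks 1, 2 and 3. Liver markers, 3 of 9 measured above the filter, summed to 2218 to 4055 in S.SHR(2) and 2191 to 5230 in Dahl S, and to 2862 to 5230, 2191 to 3219 and 2191 to 2512 in blocks 1, 2 and 3. Cyp2e1 alone, at 1838 to 5014, made up most of that sum, and Alb lay between 1.9 and 39 on all arrays. Single liver markers went different ways. Mean intensities in blocks 1, 2 and 3 were 3880, 2280 and 1920 for Cyp2e1, but 86.6, 224 and 224 for F2. They were 6.55, 43.6 and 40.5 for Apob and 6.65, 18 and 42.2 for Fgb. Of the 3 tested liver markers, 1 was called higher and 1 lower in block 2 than in block 1. Their part in the result was not tested.

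Ace encodes angiotensin-converting enzyme, which forms angiotensin II and is found in endothelium and in the brush border of the rat kidney. Both of its probe sets were dim. The brighter, 1387791_at, read 28.8, 51.9 and 25.3 in S.SHR(2) of block 1, against 34.3, 35.6 and 7.1 in Dahl S. It read 44.4, 28.4 and 35.5 in S.SHR(2) of block 2, against 30.5, 39.3 and 35.2 in Dahl S, and 46.3, 61.7 and 49.5 in S.SHR(2) of block 3, against 40, 46.4 and 59.5 in Dahl S. The strains overlapped in every block. The strain difference with the block as a term was 0.19 (95% interval -0.10 to 0.47, adjusted p = 0.71).

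Ace was higher in block 3 than in block 1 (0.66 ± 0.173, adjusted p = 0.0041), while the single steps from block 1 to 2 (0.25 ± 0.173) and from block 2 to 3 (0.42 ± 0.173) did not pass (adjusted p = 0.35 and 0.067). The other probe set, 1370028_at, had intensities of 2.7 to 21 in S.SHR(2) and 2.6 to 26.4 in Dahl S and was not tested. The summed intensity of endothelial markers, 9 of 9 measured above the filter, went the other way over the blocks. It was 4121 to 4356, 3215 to 3666 and 2708 to 3137 in blocks 1, 2 and 3. Of these markers, 7 were called lower and 1 higher in block 3 than in block 1. Vwf had mean intensities of 76.6, 391 and 223 in blocks 1, 2 and 3, unlike the sum. Their part in the result was not tested.

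Rats carry a pair of type 1 angiotensin receptor genes, Agtr1a on chromosome 17 and Agtr1b on chromosome 2. Agtr1a is the main form in kidney and vessels and Agtr1b is best known from the adrenal gland and pituitary. Their coding sequences are close, and the array's probes were not compared with them, so any signal they share cannot be separated. The stretches before their starts are shown to set the paralogs side by side, together with that of Enpep, the member called for strain with the block as a term. They are 250 bases each from RefSeq on GRCr8, all on the minus strand, at chr17:34435433-34435682 for Agtr1a, chr2:104849263-104849512 for Agtr1b and chr2:220526219-220526468 for Enpep. Capitals mark the TATA motif TATAAA, the CCAAT motif, and the GC motif GGGCGG, each searched on both strands. The reference strain is neither strain studied here.
Agtr1a: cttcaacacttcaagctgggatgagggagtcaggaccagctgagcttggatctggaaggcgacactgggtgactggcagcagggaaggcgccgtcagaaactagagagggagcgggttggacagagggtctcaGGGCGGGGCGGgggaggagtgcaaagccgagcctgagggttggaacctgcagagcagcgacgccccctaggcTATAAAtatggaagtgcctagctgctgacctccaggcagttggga
Agtr1b: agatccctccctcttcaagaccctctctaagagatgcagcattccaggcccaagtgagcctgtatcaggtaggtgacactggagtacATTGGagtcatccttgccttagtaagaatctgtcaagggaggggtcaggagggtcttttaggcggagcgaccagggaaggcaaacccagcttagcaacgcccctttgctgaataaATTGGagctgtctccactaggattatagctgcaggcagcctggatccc
Enpep: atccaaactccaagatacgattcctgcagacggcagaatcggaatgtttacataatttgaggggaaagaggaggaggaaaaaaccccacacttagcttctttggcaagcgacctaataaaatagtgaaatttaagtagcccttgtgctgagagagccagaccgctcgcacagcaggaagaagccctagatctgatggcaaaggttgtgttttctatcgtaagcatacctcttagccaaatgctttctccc
The Agtr1a stretch held 1 TATA motif and 2 overlapping GC motifs, that of Agtr1b 2 CCAAT motifs, and that of Enpep none of the 3 motifs. Over 33469 promoters of the same length, 12.9% held the TATA motif, 34% the CCAAT motif and 30.5% the GC motif. Of the 7 members, 5 had an entry.

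Agtr1b had the steadiest course over the blocks. Its intensity was 138.3, 91.8 and 93.9 in S.SHR(2) of block 1, against 82.1, 117 and 80.2 in Dahl S. It was 68.1, 62.5 and 56.3 in S.SHR(2) of block 2, against 53.8, 80.9 and 79.7 in Dahl S, and 31.3, 52.5 and 44.6 in S.SHR(2) of block 3, against 28.9, 45.9 and 53.8 in Dahl S. Every rat of block 3 lay below every rat of block 1, where 18.1% of all probe sets had separate ranges, and the strains overlapped throughout. Over both strains the level was 100.6 ± 22.7, 66.9 ± 11.5 and 42.8 ± 10.5 in blocks 1, 2 and 3 (SD, n = 6 each). It was lower in block 2 than in block 1 (-0.48 ± 0.137, adjusted p = 0.018), in block 3 than in block 2 (-0.44 ± 0.137, adjusted p = 0.015) and in block 3 than in block 1 (-0.92 ± 0.137, adjusted p = 1.6e-05). Without Dahl S replicate 2 or 4 the first step did not pass (adjusted p = 0.056 and 0.054), nor did the second without Dahl S replicate 7 (adjusted p = 0.055).

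The strain difference of Agtr1b, at 0.05 with a 95% interval of -0.18 to 0.28, did not pass although the gene lies on chromosome 2. It is the 201st tested gene there. Within 6 places of it, Ect2, a regulator of cell division, was higher in S.SHR(2) (0.58 ± 0.111, adjusted p = 0.010), as was the phospholipase Pld1 (0.53 ± 0.078, adjusted p = 6.2e-04), both picked after their values were seen. Adrenal markers were few: Cyp11b1, the last enzyme of glucocorticoid synthesis, lay between 0.60 and 11.3 on all arrays, and 2 of 8 measured markers passed the filter. Their summed intensity was 1265 to 1714 in S.SHR(2) and 1263 to 1612 in Dahl S, and 1263 to 1704, 1265 to 1533 and 1297 to 1714 in blocks 1, 2 and 3, of which Fdx1 alone held 1089 to 1614, so the sum says little of the other markers.

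The pair of Agtr1a probe sets gave different courses. The bright one, 1384240_at, read 902.5, 705.8 and 629.7 in S.SHR(2) of block 1, against 646.8, 671.8 and 777.2 in Dahl S. It read 787.8, 629.3 and 658.9 in S.SHR(2) of block 2, against 599, 593.6 and 572.7 in Dahl S, and 674, 614.3 and 600.6 in S.SHR(2) of block 3, against 446.3, 642.2 and 631.8 in Dahl S. The strains separated in block 2, where 9.27% of all probe sets had separate strain ranges, and overlapped in the others. The level of this probe set was lower in block 3 than in block 1 (-0.28 ± 0.098, adjusted p = 0.026). The steps between neighbouring blocks did not pass, nor did its F test over the blocks (adjusted p = 0.057). The call was lost without the 2 arrays of highest GAPDH ratio (-0.21, adjusted p = 0.080), after centring each array on its median (-0.19, adjusted p = 0.15), and without Dahl S replicate 3 or 7 or S.SHR(2) replicate 1 (-0.25, -0.19 and -0.22, adjusted p = 0.065, 0.097 and 0.077).

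The dimmer Agtr1a probe set, 1369291_at, read 150.7, 204.9 and 237.1 in S.SHR(2) of block 1, against 305.7, 243.5 and 224.7 in Dahl S. It read 215.6, 172.2 and 233.5 in S.SHR(2) of block 2, against 191.5, 138.6 and 200.2 in Dahl S, and 297.8, 271.5 and 236.1 in S.SHR(2) of block 3, against 315.5, 273.7 and 247.3 in Dahl S. By deposited intensity every rat of block 3 lay above every rat of block 2, where 19.7% of all probe sets had separate ranges. On the normalized log2 scale S.SHR(2) replicate 9 of block 3, at 7.956, lay below S.SHR(2) replicate 6 of block 2, at 7.982. The rise from block 2 to block 3 was 0.46 ± 0.12 (adjusted p = 0.0048), where the bright probe set differed by -0.10 ± 0.098 (adjusted p = 0.44). Between blocks 3 and 1 the dimmer probe set was at 0.25 (95% interval 0.002 to 0.50, adjusted p = 0.099), against -0.28 for the bright one. The direction of Agtr1a in block 3 against either other block therefore depended on the probe set. In the strain comparison the bright probe set was at 0.14 (95% interval -0.02 to 0.30) and the dimmer at -0.06 (-0.28 to 0.16) with the block as a term, and neither passed.

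**Figure D3:**
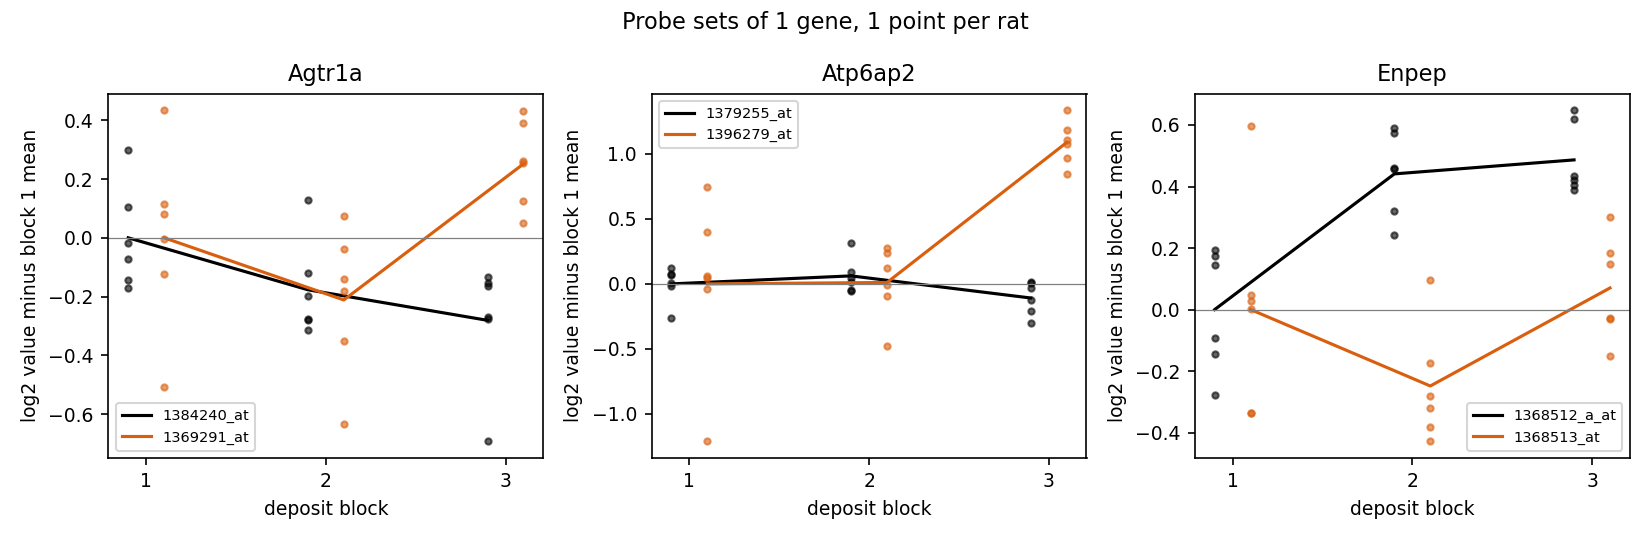
Log2 value of each rat minus the block 1 mean (vertical axis) by deposit block (horizontal axis) for the pair of probe sets of Agtr1a, Atp6ap2 and Enpep, lines joining block means over both strains. In block 3 the dimmer Agtr1a and Atp6ap2 probe sets lie above the brighter ones of the same gene.

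Atp6ap2 encodes the prorenin receptor, a membrane protein that is also an accessory subunit of the vacuolar proton pump. Its bright probe set, 1379255_at, had a level of 1789 ± 151 in S.SHR(2) and 1795 ± 172 in Dahl S (SD, n = 9 each), with a strain difference of -0.04 (95% interval -0.17 to 0.09). By deposited intensity the strains overlapped in every block. On the normalized log2 scale they separated in block 3, with S.SHR(2) at 10.536 to 10.709 and Dahl S at 10.799 to 10.846. That difference did not pass (-0.20 ± 0.1, adjusted p = 0.49). All 6 deposited intensities of block 3, at 1542 to 1775, lay below all 6 of block 2, at 1809 to 2154. On the normalized scale these blocks overlapped, since block 2 reached down to 10.781. The step of -0.17 ± 0.0708 from block 2 to block 3 did not pass (adjusted p = 0.068). Ranges of these blocks were separate for 19.7% of all probe sets.

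The dimmer probe set of Atp6ap2, 1396279_at, read 656.1, 552.8 and 659 in S.SHR(2) of block 3 and 750.9, 686.2 and 578.7 in Dahl S, all above the 12 rats of blocks 1 and 2, which lay between 114.2 and 492.9. It was higher in block 3 than in block 2 by 1.08 ± 0.202 (adjusted p = 3.0e-04) and than in block 1 by 1.09 ± 0.202 (adjusted p = 1.9e-04). Blocks 2 and 1 differed by 0.01 ± 0.202. Of all probe sets, 19.7% had separate ranges between blocks 3 and 2 and 18.1% between blocks 3 and 1. The 2 probe sets thus gave opposite signs for the step to block 3, and the direction of the gene there is uncertain. S.SHR(2) replicate 1, with the highest GAPDH ratio (2.51), had the lowest value of the dimmer probe set (114.2). Dahl S replicate 5, with the highest ratio of block 2 (2.04), had the lowest value of that block (206.2). The dimmer Agtr1a probe set was also lowest in S.SHR(2) replicate 1 within block 1 (150.7) and in Dahl S replicate 5 within block 2 (138.6). A link of these values to the ratio was not tested.

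Nr3c2, the mineralocorticoid receptor that mediates the action of aldosterone in the distal nephron, was called in none of the comparisons. It read 138.2, 144.8 and 128.7 in S.SHR(2) of block 1, against 123.2, 139.1 and 157.6 in Dahl S. It read 140.6, 149.4 and 150.1 in S.SHR(2) of block 2, against 177.9, 173.8 and 162.9 in Dahl S, and 157, 155.2 and 144.4 in S.SHR(2) of block 3, against 167.6, 131.9 and 128.7 in Dahl S. S.SHR(2) lay below Dahl S without overlap in block 2, where 9.27% of all probe sets had separate strain ranges. That difference of -0.20 ± 0.12 did not pass (adjusted p = 1.0), and the strains overlapped in the other blocks. Over all rats the strain difference was -0.02 (95% interval -0.17 to 0.13). Its F test over the blocks did not pass (adjusted p = 0.13), so no order of the blocks is given.

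Over the 10 tested member probe sets, 3 were called between blocks 2 and 1 (2 higher, 1 lower), where 19.4% of all probe sets were (10.1% higher, 9.34% lower). Between blocks 3 and 2 the count was 4 (2 higher, 2 lower) against 35.0% of all (17.9% higher, 17.1% lower), and between blocks 3 and 1 it was 6 (4 higher, 2 lower) against 41.3% (20.8% higher, 20.6% lower). The F test over the blocks called 6, against 50.1% of all. With backgrounds this high, these counts are no result about the members. The median change over the members was 0.04, -0.03 and 0.17 in these 3 comparisons, against -0.00075, 0.011 and 0.0089 over all probe sets. For the strain with the block as a term it was 0.03, with 6 above 0, against 0.0044. The test of a strain difference that changed between blocks called no member (adjusted p from 0.76 to 0.94), and 1 probe set in all (0.00537%).

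Other genes of the pathway showed no strain call. Of 25 further renin-angiotensin genes, 15 were tested and none passed, with or without the block as a term (medians of -0.0080). The smallest p values were those of Rgs5, a vascular brake on G protein signalling (-0.22 ± 0.115), the bradykinin receptor Bdkrb2, the aminopeptidase Dnpep and the carboxypeptidase Ctsa. Between the blocks 11 of the 15 passed the F test, against 49.9% of the 10483 genes tested. Prep, a peptidase that can form angiotensin fragments, had mean intensities of 247, 1180 and 1290 in blocks 1, 2 and 3, a rise of 2.22 in block 2 over block 1 (adjusted p = 9.6e-11). Agtrap, which promotes the internalisation of the type 1 receptor, was higher in block 3 than in block 1 by 0.61 (adjusted p = 4.5e-06), and kallikrein, Klk1, by 1.01 (adjusted p = 1.0e-04). The aminopeptidase Anpep, of the proximal tubule brush border, had mean intensities of 3450, 4720 and 3480, higher in block 2 than in block 1 (0.48, adjusted p = 4.7e-06) and lower in block 3 than in block 2 (-0.34, adjusted p = 1.1e-04). The others past the F test were Nln, Thop1, Dnpep, Atp6ap1, Rgs5, Rgs2 and Ctsd.

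**Figure D4:**
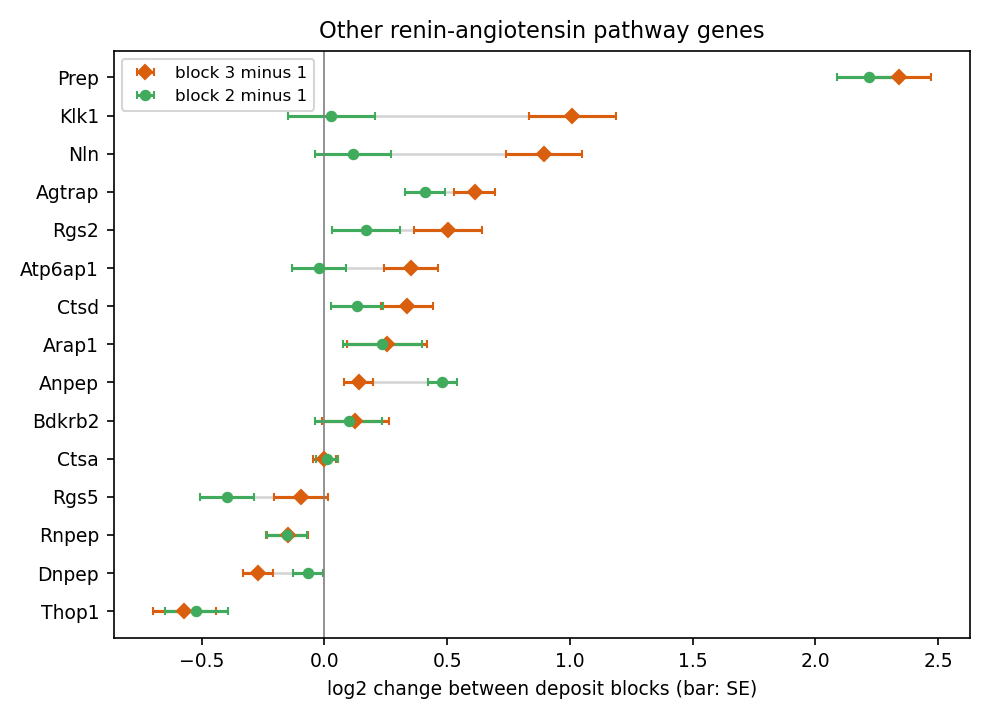
Log2 change between deposit blocks (horizontal axis, bars SE) of the 15 tested genes of the wider renin-angiotensin pathway, block 2 minus 1 (circles) and block 3 minus 1 (diamonds). Prep shows the largest changes, 2.22 and 2.34, while Thop1, Rgs5, Rnpep and Dnpep lie below 0 in both comparisons.

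Of 19 genes of aldosterone synthesis and response, 15 were tested. None passed in the strain comparison, where the median was 0.05, and 10 passed the F test over the blocks, against 49.9% of all genes tested. Hsd11b2, which shields the mineralocorticoid receptor from glucocorticoids, was lower in block 2 than in block 1 (-0.54, adjusted p = 8.3e-05) and in block 3 than in block 1 (-0.54, adjusted p = 2.4e-05). Collecting duct markers, of which Hsd11b2 is one, were all above the filter. They summed to 6993 to 7869, 4511 to 5991 and 4641 to 6366 in blocks 1, 2 and 3, and Aqp2 alone held 1662 to 3594. The part of these cells in the result was not tested. The sodium channel subunits Scnn1a and Scnn1b were higher in block 3 than in block 1 (0.41 and 0.34, adjusted p = 0.0090 and 0.0091), and Scnn1g was not (0.04, adjusted p = 0.78). Sgk1, the kinase induced by aldosterone, had the smallest strain p of the list in the fit without the block (-0.21 ± 0.116) and did not pass (adjusted p = 1.0). The others past the F test were Hsd11b1, Klf9, Nr3c1, Tsc22d3, Usp2 and Fkbp5.

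Of 16 genes that respond to angiotensin II, 14 were tested, none passed for strain (median -0.07) and 8 passed the F test over the blocks, against the same 49.9%. Cybb, the catalytic subunit of the phagocyte NADPH oxidase, had mean intensities of 39.5, 79.9 and 339 in blocks 1, 2 and 3, and Spp1, osteopontin, 1920, 2920 and 5660. Spp1 lay closest to a strain call (-0.53 ± 0.125 with the block as a term, adjusted p = 0.056). The others were Jun, Fn1, Rcan1, Ccl2, Tgfb1 and Ccn2. Macrophage markers, 9 of 10 above the filter, summed to 1973 to 3001, 3280 to 3713 and 3288 to 4672 in blocks 1, 2 and 3. Lyz2 alone, at 1282 to 2917, made up most of that sum. Of the macrophage markers, 8 were called higher in block 3 than in block 1. Their part in the rise of Cybb and Spp1 was not tested. The lists and members were chosen with earlier results of these data known.

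Genes whose log2 values over the 18 arrays were most like a member's, by Pearson's r as a description, were led by Mfsd1 for Enpep (0.959), Cpxm2 for Agt (0.927), Mrpl37 for Agtr1b (0.934) and Riok3 for Atp6ap2 (0.942). For Agtr1a, Ace and Nr3c2 they were Nudcd2 (0.877), Nmt1 (0.835) and Chd6 (0.781). The arrays share the steps between blocks, and with strain and block means removed these values were 0.43, 0.62, 0.76, 0.91, 0.79, 0.70 and 0.66 in the order given. Mfsd1, the closest to Enpep, also lies on chromosome 2.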

How the data were processed

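Kidney RNA of 18 rats was hybridised to 1 array each, per the labels' protocols. The values are linear intensities deposited by the authors, scaled to a trimmed mean of 150.046 to 150.054 per array, as read from the values; the sources used here do not give the software. Control probe sets (57) were left out. Values were transformed as log2(intensity + 16), quantile normalized because array medians spanned 0.235, and the lowest 40% were left out (18625 tested). Fold changes on this scale understate those of dim probe sets. Ranges and their overlap were compared on deposited intensities unless the normalized scale is named, also for the shares over all probe sets. Strain was tested with limma 3.58.1 in R 4.3.3 (lmFit, eBayes with trend, two-sided, Benjamini-Hochberg over all tested probe sets, threshold 0.05), S.SHR(2) minus Dahl S, without covariates. Alternatives included deposit block as a term. Block contrasts, within-block strain contrasts and interactions came from 6 cell means. Errors of changes are SEs; errors of intensities are SDs. Gene symbols came from the platform annotation, updated through GRCr8. A gene is read by its brightest probe set where lists are counted. The fits were tested on simulated data with 200 of the 18625 probe sets changed (means of 5 runs). Without the block, 0%, 44.2% and 94.9% of log2 strain changes of 0.25, 0.5 and 1 were recovered. With the block as a term these were 7%, 77.5% and 99.4%, so small strain differences would mostly be missed. Members, gene lists and tests were chosen with earlier results of these data known. Every member probe set is named; from the other lists, genes past the F test over blocks and up to 4 with the smallest strain p. No scanner files were used here, so background correction and detection calls were not run. Figures used matplotlib 3.10.9.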

Additional observations from a re-analysis of the deposited data

Results flagged for a closer look

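Of 55 groups of member values examined, 9 rats of a strain or 6 of a block at a time, 3 held an array far from the others, about as many as the 1 in 20 that chance flags. Enpep 1368513_at read 87.8 in Dahl S replicate 1, against 55.9 for the next rat of block 1. Agtr1a 1384240_at read 446.3 in Dahl S replicate 7, against 600.6 for the next rat of block 3, and without this rat the lower level in block 3 than in block 1 did not pass (-0.19, adjusted p = 0.097). Atp6ap2 1379255_at read 2154 in Dahl S replicate 5, against 1912 for the next rat of block 2.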

How the results depend on the processing

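No paired analysis was possible because the labels give no replicate numbers. The member steps between blocks for Agt (0.93 to 1.47, -0.77 to -0.52 and 0.41 to 0.71 for blocks 2 minus 1, 3 minus 2 and 3 minus 1) and for the bright Enpep probe set in blocks 2 and 3 against 1 (0.41 to 0.47 and 0.45 to 0.53) passed under all 28 alternatives. The Enpep strain difference with the block as a term was positive under all 30 (0.20 to 0.32) and called under 14. The member count with the block was 0, not 1, with no filter on low values (adjusted p = 0.072), eBayes without trend (0.14) and without block 3 (0.14), and 0 to 1 when 1 rat was left out; the cause was not tested. Without the block 0 members were called, and 1 with the block as a term.

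Over all probe sets, the strain count of 23 became 92 with the block as a term and 41 with array weights, and the count of 92 became 38 without block 3. The count of changed strain differences between blocks, 1, became 43 with array weights and 5 without the 2 arrays of highest GAPDH ratio, and was 1 to 3 when 1 rat was left out. Array weights gave Agtr1b a strain difference with block of -0.0358 and Enpep 1368513_at a step from block 1 to 3 of -0.00134. Values as deposited gave Enpep 1368513_at a strain difference of -0.0243 with and without the block, and the bright Enpep probe set a step from block 2 to 3 of -0.00395. Arrays centred on medians gave Atp6ap2 1379255_at a strain difference of 0.0399 in both fits, and the data without block 3 gave 0.0379, and -0.0554 for Enpep 1368513_at. A pseudocount of 64 gave Atp6ap2 1396279_at a step from block 1 to 2 of -0.00417. Without the 2 arrays of highest GAPDH ratio this was -0.107, and the strain differences of Agtr1b and Nr3c2 were -0.0275 and 0.0113.

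With 1 rat left out, signs turned for differences near 0. The strain difference without the block ran from -0.0357 to 0.091 for Enpep 1368513_at, from -0.0595 to 0.138 for Agtr1b and from -0.0524 to 0.013 for Nr3c2. With the block it ran from -0.0405 to 0.0943 for Enpep 1368513_at, from -0.00886 to 0.0903 for Agtr1b, from -0.0508 to 0.00275 for Nr3c2 and from -0.128 to 0.00483 for Agtr1a 1369291_at. The step from block 1 to 2 of Atp6ap2 1396279_at ran from -0.229 to 0.173, and that from block 1 to 3 of Enpep 1368513_at from -0.0358 to 0.198. With arrays centred on medians 60% of calls between blocks 3 and 1 were higher, against 50.3%, and for the strain 33.3% against 17.4%, or 47.7% against 35.9% with the block. Dim signal limits Ace most.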
